A study of Mus musculus with 4 samples.

Results

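The genes described here are the phagocyte NADPH oxidase genes Cybb, Cyba, Ncf1 and Ncf4 together with Hvcn1, the voltage-gated proton channel that supports the oxidase. They were chosen by gene symbol, all 5 were found in both count tables, and they are 5 of the 54532 genes listed there, 22046 of which are protein-coding. RNA was sequenced from primary microglia of newborn male CD1 mice, which were grown in mixed cortical glial cultures with GM-CSF, freed of the astrocyte layer with trypsin and kept in serum-free medium that held GM-CSF among other factors. Vehicle cultures received DMSO for 24 h and EGCG cultures received 1 µM epigallocatechin gallate, the main tea catechin, for 24 h. There were 2 libraries per group, labelled as biological replicates 1 and 2, and each replicate has a count table of its own that holds 1 vehicle and 1 EGCG library. Total counts ranged from 33805071 to 54970300 per library, with EGCG replicate 2 the deepest.

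The phagocyte oxidase moves electrons from NADPH in the cytosol across the membrane to oxygen and so makes superoxide, the first product of the respiratory burst. Its catalytic core is a membrane pair made of gp91phox (Cybb) and p22phox (Cyba), which stays silent until the cytosolic organiser p47phox (Ncf1), the stabilising subunit p40phox (Ncf4), a Rac GTPase and further cytosolic proteins join it. Electron transfer leaves positive charge in the cytosol, and the proton channel encoded by Hvcn1 lets it out. In microglia this enzyme is a well-known source of superoxide.

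All 5 genes were highly expressed. On the scale of CPM, the count of a gene relative to the total of its library after adjustment with the TMM factors of edgeR, Cybb averaged 2667 CPM over the 4 libraries and ranked 21 of the 13811 protein-coding genes tested. Cyba ranked 149, Ncf1 186, Hvcn1 238 and Ncf4 475 on that scale. The 5 genes together took between 0.374% and 0.567% of the counts on tested genes, and Cybb alone made up between 51.1% and 58.8% of their summed CPM.

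To compare levels between genes, CPM was divided by the gene length given in the files, in kilobases. On this scale Cyba was highest, at 643 ± 120 CPM per kb (SD, n = 4 libraries), followed by Cybb at 459 ± 138. Cyba was above Cybb in each of the 4 libraries, by a ratio of counts per base between 1.27 and 1.72. Ncf1 followed at 160 ± 3.59 CPM per kb, Ncf4 at 158 ± 5.15 and Hvcn1 at 141 ± 65.0. Ncf1 and Ncf4 did not differ beyond their spread, with a ratio of Ncf4 to Ncf1 between 0.941 and 1.04. Hvcn1 had no fixed place below them, since it was above both in the libraries of replicate 1 and below both in those of replicate 2.

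Cybb (ENSMUSG00000015340, chromosome X of GRCm38.p6, 9435252 to 9487771, minus strand) encodes the electron-carrying subunit. In replicate 1 its level was 3194 CPM with vehicle and 3496 CPM with EGCG, and in replicate 2 it was 1854 CPM with vehicle and 2123 CPM with EGCG. Both libraries of replicate 1 were above both libraries of replicate 2, and the EGCG library was the higher in each replicate. Cyba (ENSMUSG00000006519, chromosome 8, 122424776 to 122432930, minus strand) encodes the small partner that docks p47phox. Its level was 727 CPM with vehicle and 815 CPM with EGCG in replicate 1, against 570.4 CPM and 559 CPM in replicate 2. Again both libraries of replicate 1 were the higher ones, whereas the vehicle and EGCG values overlapped. The share of all genes with such a gap between the replicates was not counted.

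Ncf1 (ENSMUSG00000015950, chromosome 5, 134220053 to 134229625, minus strand) encodes the organiser and had 585 CPM with vehicle and 571 CPM with EGCG in replicate 1, against 585 CPM and 603 CPM in replicate 2. Ncf4 (ENSMUSG00000071715, chromosome 15, 78244801 to 78262580, plus strand) encodes the stabilising subunit and had 304 CPM with vehicle and 327 CPM with EGCG in replicate 1, against 324 CPM and 319.7 CPM in replicate 2. For Ncf4 no group and no replicate stood apart. The groups also overlapped for Ncf1. Its libraries of replicate 2 were above those of replicate 1 by a narrow margin, with the vehicle libraries at 585.03 and 584.77 CPM. Hvcn1 (ENSMUSG00000064267, chromosome 5, 122206804 to 122242297, plus strand) encodes the proton channel and had 671 CPM with vehicle and 732 CPM with EGCG in replicate 1, but 292 CPM and 315 CPM in replicate 2. It had the widest gap between the replicates among the 5 genes.

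**Figure D1:**
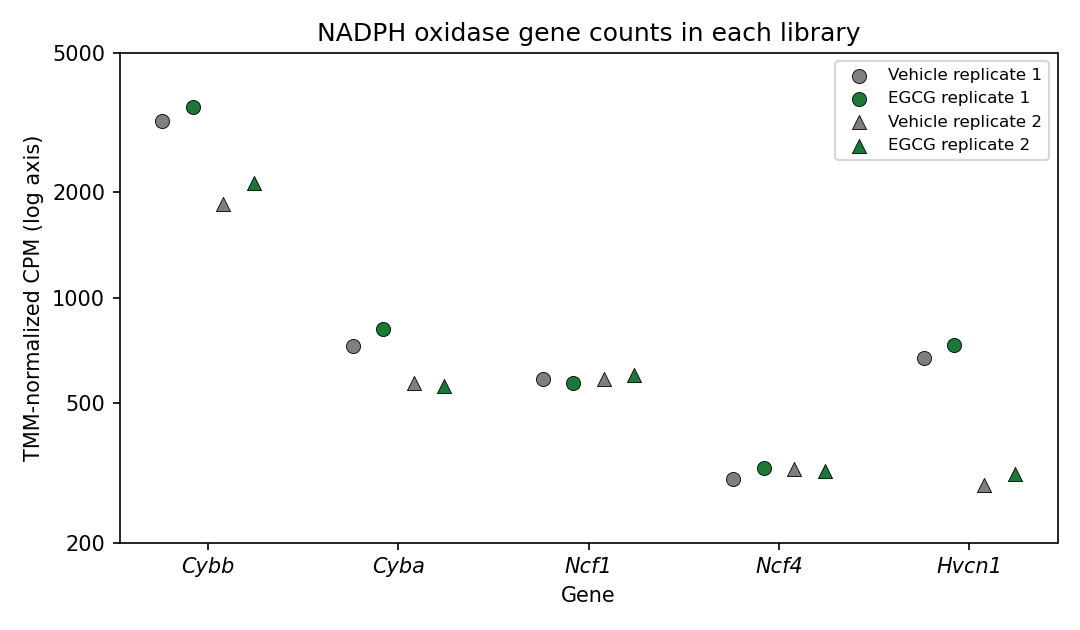
TMM-normalised CPM (log axis) of the 5 genes in each library, with circles for replicate 1, triangles for replicate 2, grey for vehicle and green for EGCG. Circles lie above triangles for Cybb, Cyba and Hvcn1, whereas the 4 points of Ncf1 lie between 571 and 603 CPM.

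The first comparison asks whether EGCG altered the RNA of the oxidase. None of the 5 genes passed the test. Vehicle and EGCG means were 2524 ± 948 and 2810 ± 971 CPM for Cybb, 649 ± 111 and 687 ± 181 for Cyba, and 481 ± 268 and 524 ± 295 for Hvcn1 (SD, n = 2 libraries each). They were 585 ± 0.189 and 587 ± 22.7 CPM for Ncf1 and 314 ± 14.6 and 323 ± 5.0 for Ncf4. The log2 fold changes of EGCG against vehicle were 0.15 for Cybb, 0.08 for Cyba, 0.0051 for Ncf1, 0.04 for Ncf4 and 0.12 for Hvcn1, with 95% intervals from -1.04 to 1.35, -0.70 to 0.86, -0.43 to 0.44, -0.36 to 0.44 and -1.61 to 1.85. The intervals of Cybb and Hvcn1 leave room for a doubling or a halving. The quasi-likelihood test of edgeR, fitted on treatment alone, gave an adjusted p of 1.00 for each, and the unadjusted p from the same edgeR fit over all genes lay between 0.735 and 0.98. Over all genes, the same test called 0.116% at an unadjusted p under 0.05 (16 of 13811) and none at an adjusted p under 0.1, where DESeq2 called 1.

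Because each replicate has its own table, the differences were also taken within replicates. On the log2 scale Cybb was 0.13 higher in EGCG in replicate 1 and 0.20 higher in replicate 2, and Hvcn1 was 0.13 and 0.11 higher. These are the members with the same sign in both replicates. Across all 13811 genes the EGCG differences of the 2 replicates had a Pearson r of -0.05. The share of all genes with the same sign in both was not counted. Cyba was 0.16 higher in replicate 1 and differed by -0.03 in replicate 2, Ncf4 by 0.11 and -0.02, and Ncf1 by -0.03 and 0.04. When the replicate number entered edgeR as a block, the intervals narrowed to between -0.04 and 0.37 for Cybb and between -0.02 and 0.25 for Hvcn1, with unadjusted p of 0.0954 and 0.0735 from that edgeR model over all genes. Those of Cyba, Ncf1 and Ncf4 ran from -0.11 to 0.25, -0.14 to 0.15 and -0.10 to 0.18. The blocked edgeR fit thus called none of the 5 at an unadjusted p under 0.05, against 3.21% of all genes. In DESeq2 with the replicate block Cybb had an unadjusted p of 0.0126 and an adjusted p of 1.00 (log2 fold change 0.16, standard error 0.06), where 1.11% of all genes had an unadjusted p under 0.05 and 0.666% had one with a higher value in EGCG.

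**Figure D2:**
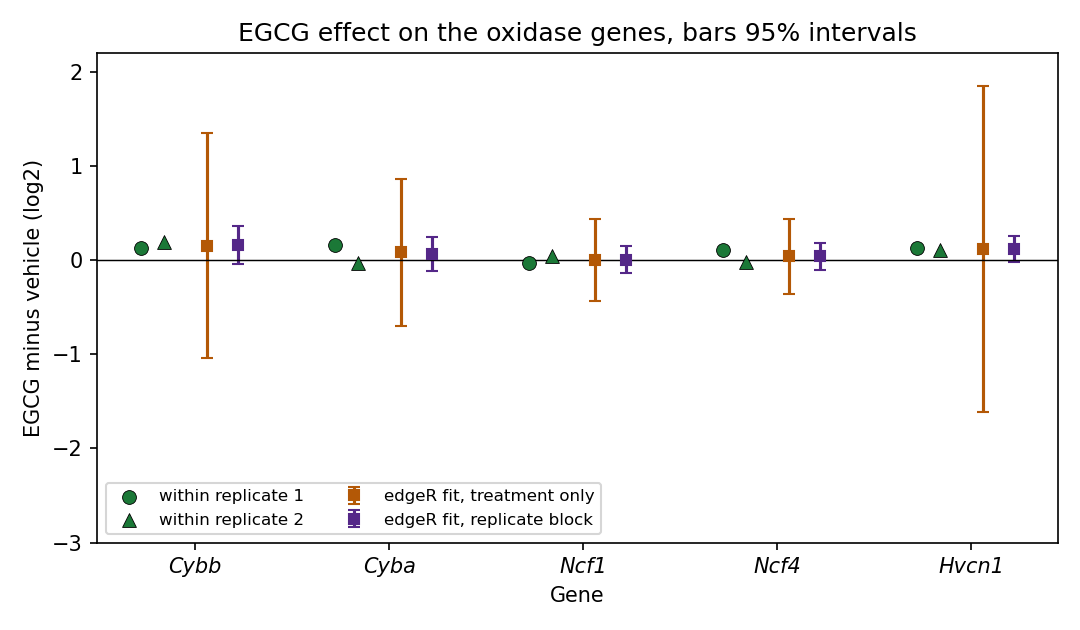
Difference of EGCG from vehicle (log2) for the 5 genes, as the value within each replicate (green) and as the edgeR estimate with its 95% interval, from treatment alone (orange) or with the replicate block (purple). The intervals of the 2 fits include 0 for each gene, and those without the block are widest for Cybb and Hvcn1.

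The second comparison sets the libraries of replicate 2 against those of replicate 1. Cybb, Cyba and Hvcn1 were lower in replicate 2, and Ncf1 and Ncf4 did not pass the test. The intervals of Ncf1 and Ncf4 included 0. The share of members called was near that of all genes, 56.7%, so no split between membrane and cytosolic parts is read from it. Replicate 1 and replicate 2 averaged 3345 ± 214 and 1988 ± 190.5 CPM for Cybb, 771 ± 62.2 and 565 ± 8.28 for Cyba, and 702 ± 43.2 and 303 ± 16.5 for Hvcn1 (SD, n = 2 libraries each). In edgeR's quasi-likelihood test with replicate as the only term, the log2 difference was -0.75 for Cybb (standard error 0.10, adjusted p = 0.00101), -0.45 for Cyba (0.07, adjusted p = 0.0023) and -1.21 for Hvcn1 (0.07, adjusted p = 2.65e-05). Hvcn1 was therefore 2.31-fold higher in replicate 1, Cybb 1.68-fold and Cyba 1.37-fold. For Ncf1 the log2 difference was 0.04 (95% interval -0.10 to 0.18) and for Ncf4 0.03 (-0.11 to 0.17).

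The 3 calls among 5 genes stand against 56.7% of all genes called in this comparison at an adjusted p under 0.1, with 27.6% called lower, so that a difference between the replicates was common. Among the 8356 genes with a mean of at least 10 CPM, 2.70% had a lower difference than Hvcn1, 6.20% a lower one than Cybb and 12.5% a lower one than Cyba, whereas Ncf1 and Ncf4 lay at 48.1% and 47.1%. The labels do not say whether the vehicle and EGCG libraries of a replicate came from the same animals, so these p-values measure the spread between the libraries of a table. Culture, sequencing run and count table cannot be told apart. Fewer cells of a type and less RNA per cell also cannot be told apart in bulk RNA.

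**Figure D3:**
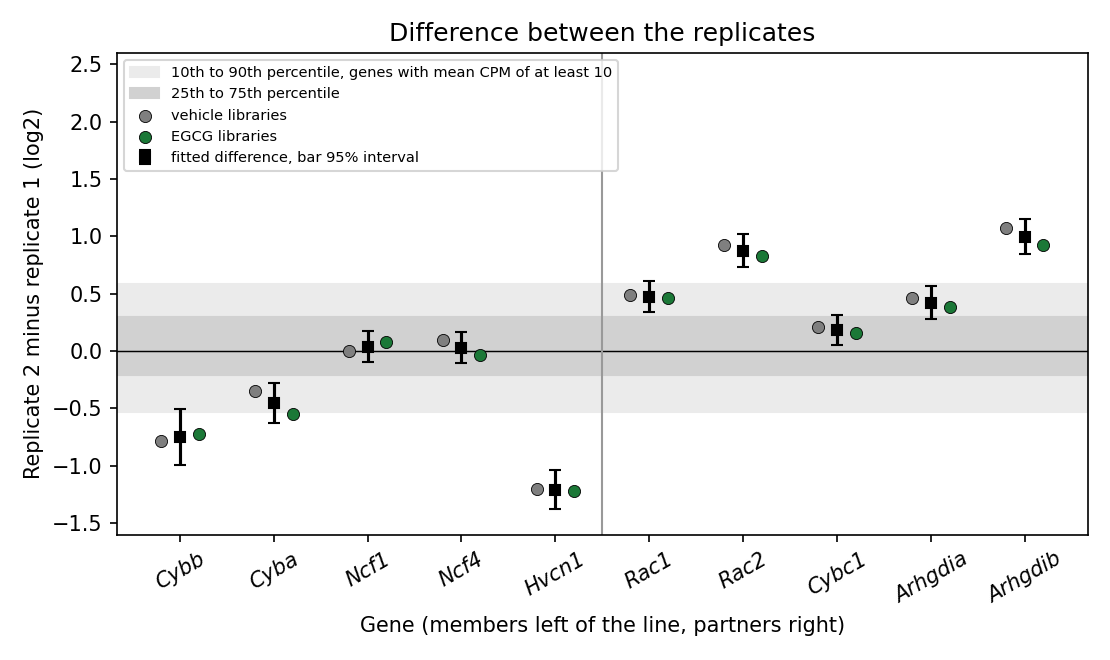
Difference of replicate 2 from replicate 1 (log2) for the 5 genes and 5 partners, from the vehicle libraries (grey), the EGCG libraries (green) and the edgeR fit with its 95% interval (black), over the 25th to 75th and 10th to 90th percentiles of genes with a mean of at least 10 CPM (bands). Hvcn1 lies at -1.21 and Rac2 at 0.88, while Ncf1 and Ncf4 lie near 0.

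The difference was present in both treatments. Between the 2 vehicle libraries it was -0.78 for Cybb, -0.35 for Cyba and -1.203 for Hvcn1 on the log2 scale, and between the EGCG libraries it was -0.72, -0.54 and -1.22. Ratios taken within a library do not depend on the scaling of libraries. The ratio of Cybb to Ncf1, in counts per base, was 3.44 and 3.86 in the vehicle and EGCG libraries of replicate 1 and 2.00 and 2.22 in those of replicate 2. The ratio of Hvcn1 to Ncf1 was 1.18 and 1.32 in replicate 1 and 0.512 and 0.537 in replicate 2, and that of Cyba to Ncf1 was 4.38 and 5.03, then 3.44 and 3.27. These ratios restate the differences of the members relative to Ncf1 and are no separate support. They did not overlap between replicates, but the share of all gene pairs without such overlap was not counted. The edgeR test between replicates called 56.7% of all genes at an adjusted p under 0.1, which is another measure. A two-sided exact permutation test gave p = 0.333 for each of them, the smallest p that 2 libraries against 2 allow, and p = 1.00 for Ncf4 to Ncf1.

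**Figure D4:**
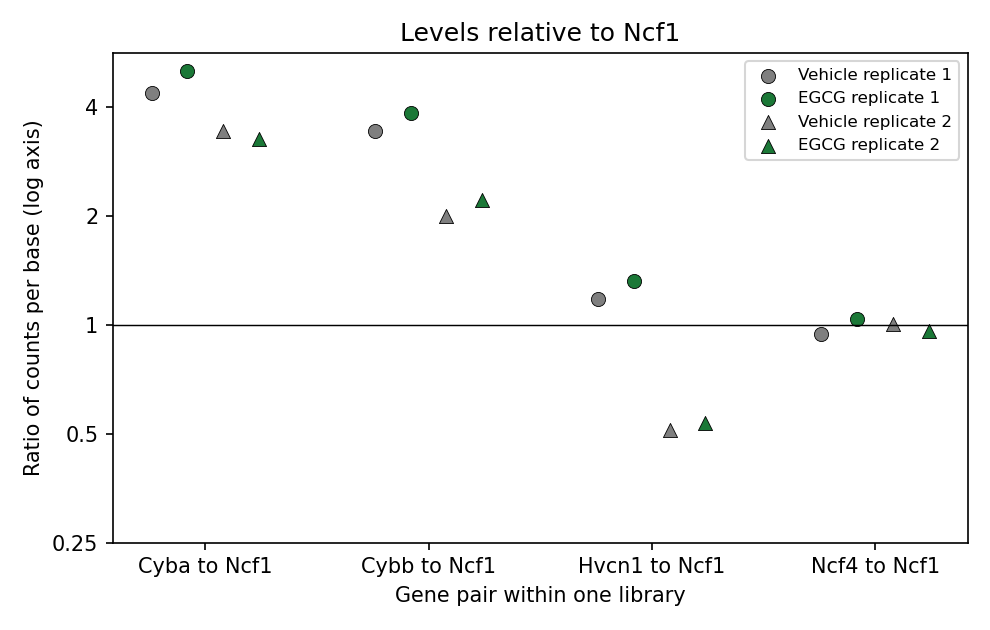
Ratio of counts per base to Ncf1 (log axis) within each library, with circles for replicate 1, triangles for replicate 2, grey for vehicle and green for EGCG. The ratio of Ncf4 stays near 1 in the 4 libraries and that of Hvcn1 falls on either side of 1, between 1.18 and 1.32 in replicate 1 and between 0.512 and 0.537 in replicate 2.

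The upstream sequences of Cybb, Cyba and Ncf1 are shown because the first 2 genes were lower in replicate 2 and the third was not. The RefSeq promoter table used here matched 3 of the 5 genes, on GRCm38.p6, the build of the files. Each line gives the 200 bases before the RefSeq start site on the minus strand, 5′ to 3′, and capitals mark GAAA followed by any 2 bases and GAAA, or its reverse complement with TTTC on both sides. Interferon regulatory factors bind GAAA repeats of this spacing. The Cybb window lies inside the gene interval of the files, whose 5′ end is at 9487771. The windows of Cyba and Ncf1 lie just outside their gene intervals.
Cybb, chrX:9469325-9469524: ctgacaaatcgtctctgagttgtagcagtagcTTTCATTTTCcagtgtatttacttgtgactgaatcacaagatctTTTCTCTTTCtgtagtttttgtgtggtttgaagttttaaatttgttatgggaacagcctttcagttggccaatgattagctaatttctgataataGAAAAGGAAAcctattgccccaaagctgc
Cyba, chr8:122432941-122433140: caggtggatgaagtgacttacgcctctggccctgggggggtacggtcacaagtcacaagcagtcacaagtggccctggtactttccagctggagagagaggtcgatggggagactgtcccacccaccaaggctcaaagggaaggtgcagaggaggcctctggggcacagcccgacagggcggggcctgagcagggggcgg
Ncf1, chr5:134229626-134229825: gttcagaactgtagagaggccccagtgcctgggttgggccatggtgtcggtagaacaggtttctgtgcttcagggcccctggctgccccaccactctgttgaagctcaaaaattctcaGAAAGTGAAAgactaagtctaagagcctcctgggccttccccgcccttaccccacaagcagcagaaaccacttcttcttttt
Cybb held 3 matches, which began 168, 124 and 29 bases before the start site, Ncf1 held 1, which began 82 bases before it, and Cyba held none. Of 32817 RefSeq promoter windows of this length, 2.26% held this GAAA repeat on either strand. The first and the last match of Cybb overlap GGAA or its reverse complement TTCC, the core bound by ETS factors such as PU.1, which occurs in 89.0% of these windows and has 3 matches in Cybb, 2 in Cyba and 1 in Ncf1. The longer stretch GAGGAA, sought on either strand, occurs in 19.0% of these windows and was absent from those of Cybb, Cyba and Ncf1. The matches describe the letters only.

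Of the factors known to act on oxidase genes, Spi1, which encodes PU.1, did not pass the test between the replicates, with a log2 difference of -0.01 (95% interval -0.17 to 0.14). Irf8, a partner of PU.1 in myeloid cells, was lower in replicate 2 by a log2 difference of -0.33 (adjusted p from edgeR = 0.0019), and Irf1 did not pass (-0.10). Of the 8 factors listed, 3 were higher in replicate 2 and 3 lower, against 29.1% and 27.6% of all genes. The higher ones were the NF-κB subunit genes Rela (0.82) and Nfkb1 (0.87) and the ETS gene Elf1 (0.23), and the lower ones were Irf8, Cebpa (-0.98) and Cebpb (-0.23). Fewer factors were called lower without Vehicle replicate 2 or EGCG replicate 2, and more without Vehicle replicate 1. With EGCG none of the 8 passed an unadjusted p under 0.05 in either edgeR fit.

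The partners and activators of the oxidase were mostly higher in replicate 2, whereas Cybb and Cyba were lower. Of 16 genes, 12 were higher and 2 lower at an adjusted p under 0.1 in edgeR, against 29.1% and 27.6% of all genes. Their median log2 difference was 0.45 against -0.0027 over all genes tested. Of the 8356 genes with a mean of at least 10 CPM, 3187 were higher and 2412 lower, with a median of 0.058.

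Rac1 and Rac2 encode the GTPases that switch the complex on. Rac2, the form typical of blood cells, was at 321 and 346 CPM in replicate 1 and 609.6 and 615 in replicate 2, a log2 difference of 0.88, and Rac1 differed by 0.47. Arhgdia and Arhgdib encode inhibitors that hold Rac in the cytosol, and differed by 0.42 and 0.997. The exchange factor genes Prex1 and Vav1, which load Rac with GTP, differed by 1.21 and 0.61. Kinase genes that act upstream of p47phox phosphorylation were higher for Prkcb (0.88) and Mapk14 (0.78) and lower for Prkcd (-0.29) and Prkca (-0.36). The lipid kinase genes Pik3cg and Pik3c3, the second of which makes the lipid that p40phox binds, differed by 0.71 and 0.34. Cybc1, the chaperone of the membrane core, differed by 0.18. Each of these named partners passed at an adjusted p under 0.1 in edgeR. None of the 16 passed an unadjusted p under 0.05 for EGCG in either edgeR fit.

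The genes that supply NADPH were mostly lower in replicate 2, as Cybb and Cyba were. Of 9, 7 were lower in replicate 2 and 1 was higher, against 27.6% and 29.1% of all genes. Their median log2 difference was -0.39 against -0.0027 over all genes tested. The lower calls numbered 6 with total counts only, with no filter on low counts and with genes of all biotypes. They also fell without EGCG replicate 1, and fell furthest without Vehicle replicate 2 or EGCG replicate 2. In those fits a lone library stood for a replicate. Pgd, which makes NADPH in the pentose phosphate pathway, was at 664 and 679 CPM in replicate 1 and 334 and 318 in replicate 2, a log2 difference of -1.04. Tkt differed by -0.88, Idh1 by -0.52 and Me1 by -1.16, while G6pdx, the entry enzyme of the pathway, differed by -0.13 (adjusted p from edgeR = 0.0786). The higher gene was Pgls (0.18), whose call was lost with upper-quartile factors, in DESeq2 and without Vehicle replicate 1 or EGCG replicate 2. With EGCG none of the 9 passed an unadjusted p under 0.05 in either edgeR fit.

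Of the enzymes that act on superoxide and peroxide, Sod2 was higher in replicate 2 (log2 difference 0.89), and Cat (-0.36) and Gpx1 (-0.50) were lower. For EGCG, Gpx1 had an unadjusted p of 0.0461 in the blocked edgeR fit (adjusted p = 0.995), with differences of 0.15 and 0.14 within replicates 1 and 2. That fit gave 3.21% of all genes an unadjusted p under 0.05. Sod3 passed an unadjusted p under 0.05 in both edgeR fits, with an adjusted p of 1.00 and 0.995, and had 35 and 24 counts in the vehicle libraries and 0 and 2 in the EGCG libraries of replicates 1 and 2. Mpo, which encodes the myeloperoxidase of neutrophil granules, had 1 count in EGCG replicate 2 and 0 in the other libraries. The other NADPH oxidases were nearly silent: 3 of 9 genes passed the filter of 10 counts summed over the libraries, and the 9 genes together came to between 2.68 and 3.79 CPM. Noxo1, an organiser related to Ncf1, was the one called higher in replicate 2 (log2 difference 1.25), on 42 to 153 counts per library.

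The cells carried the markers of microglia. All 9 microglia markers listed were tested, and they summed to between 5073 and 6012 CPM. Between the replicates 4 were higher and 4 lower in replicate 2, against 29.1% and 27.6% of all genes, among them Csf1r (0.96), Cx3cr1 (1.202), Itgam (-1.28) and Trem2 (-0.71). For EGCG the blocked edgeR fit gave Trem2 an unadjusted p of 0.0449 (adjusted p = 0.995) and the other 8 an unadjusted p above 0.05. Neutrophils and B cells can express oxidase or proton channel genes. The neutrophil markers summed to 12.1 and 13.3 CPM in replicate 1 and 3.11 and 3.64 in replicate 2, mostly of S100a8, while S100a9, Ly6g and Elane were at 0 counts in each library. The B cell markers summed to at most 0.546 CPM, with Ms4a1 at 0. Stromal markers summed to 421 CPM with vehicle and 4.87 CPM with EGCG in replicate 1, against 157 CPM and 174 CPM in replicate 2, so that 1 EGCG library stood apart. Astrocyte markers lay between 13.8 and 19.4 CPM and oligodendrocyte markers between 77.4 and 80.5. The neuron markers summed to 18.6 and 17.6 CPM in replicate 1 and 1.06 and 1.74 in replicate 2, with Snap25 the main one in replicate 1. The endothelial markers summed to 2.47 and 0.905 CPM, then to 16.8 and 13.7, with Pecam1 the main one in replicate 2. Among them Cdh5 had an unadjusted p of 0.00584 for EGCG in the blocked edgeR fit (adjusted p = 0.995), with 79 and 34 counts in the vehicle libraries and 26 and 13 in the EGCG libraries of replicates 1 and 2. The part of these cells in the differences was not tested.

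For each of the 5 genes, the nearest profiles were sought among the other genes with a mean of at least 10 CPM, as the Euclidean distance between log2 CPM profiles centred on their own mean over the 4 libraries. With 4 libraries this is a description of shape. Nearest to Cybb were Unc119 (0.03) and Ssbp1 (0.04), nearest to Cyba were Pgbd5 (0.02) and Slc25a4 (0.02), and the second nearest to Hvcn1 was Sept9 (0.04), which the files list under a date-like symbol. Nearest to Ncf1 were Ints7 and Smc3 (0.01 and 0.02), and nearest to Ncf4 were Lgmn (0.0055) and Lin7c (0.0061). None of these genes is on the oxidase lists.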

How the data were processed

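The authors filtered reads for adapters and low quality, aligned them with HISAT2 to GRCm38.p6 and deposited raw counts per gene without normalisation, in 1 table per replicate. The libraries were strand-specific per the study's methods. The counting program, its annotation and its strand setting are not given in the sources used here. Columns were matched to samples through their treatment names and the submitters' sample sheet, which names the table of each replicate. Both tables were merged by Ensembl identifier. Loci assembled separately in each table (697 and 329) were not used here. The 5 positions matched GENCODE release M21. The members, lists and tests were chosen with earlier results of these data known.

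Counts were tested in R 4.3.3 with edgeR 4.0.16 (TMM, quasi-likelihood F test, two-sided, package defaults) on 13811 protein-coding genes, those whose counts over the 4 libraries came to 10 or more. The study's methods name a contrast of EGCG and vehicle and no replicate term, and whether one was fitted is not given in the sources used here. Treatment alone is the main design, and p-values were adjusted by Benjamini-Hochberg over all genes. Standard errors were derived from the F statistic. Thresholds were those of the study, an unadjusted p under 0.05 and an adjusted p under 0.1. The fits were tested on simulated data. DESeq2 1.42.0, other scaling factors and filters, all biotypes, a replicate block and fits without 1 library each were alternatives. A prior count of 2 was used for log2 CPM. Genes named are the 5 members, Rac1, Rac2 and Cybc1, list genes that passed an unadjusted p under 0.05 for EGCG in either edgeR fit, and the 2 nearest profiles per member. Other genes were named after their values were seen. Some genes of the lists and profiles are not reported here. Copies were sought with BLAST 2.17.0 at 90% identity over 200 nt.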

Additional observations from a re-analysis of the deposited data

How the results depend on the processing

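Libraries with the same number deviated together (Pearson r = 0.64 across 13811 genes between the vehicle and the EGCG difference of the replicates, which are not independent replicates). With 2 numbers the data cannot show that these pair the samples. With the replicate block, edgeR gave 444 genes with p under 0.05 for EGCG in place of 16, and DESeq2 with replicate block gave 153, and the adjusted p fell under 0.1 for 1 gene in the first and 7 in the second, against 0 without the block in edgeR and 1 in DESeq2. The block changed the call of 1 of the 5 genes, Cybb in DESeq2. Only 3 genes had p under 0.05 when 10 counts were required in every library, and 35 did among genes of all biotypes. Leaving out each library in turn gave between 8 (without EGCG replicate 1) and 131 (without EGCG replicate 2), with 57 without Vehicle replicate 2. It left none of the 5 genes called for EGCG and the 3 genes called between the replicates.

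Without 1 library the replicates are no longer balanced between treatments, and the lone library is assumed to vary like the others. The log2 fold change for EGCG then ranged from -0.25 to 0.602 for Cybb, -0.22 to 0.299 for Cyba, -0.065 to 0.042 for Ncf1, -0.0027 to 0.074 for Ncf4 and -0.61 to 0.85 for Hvcn1. For Ncf1 it was -0.015 with upper-quartile factors, -0.026 with total counts only, -0.0024 with RLE factors, -0.0060 with 10 counts in every library, -0.0023 in DESeq2 and -0.0026 in DESeq2 with the block, none past the threshold. Between the replicates, upper-quartile factors turned Ncf1 to -0.022 and Ncf4 to -0.030, total counts only brought Ncf4 past the threshold at 0.11 (adjusted p = 0.0817 from edgeR), and leaving out a library gave -0.025 to 0.081 for Ncf4. Cybb, Cyba and Hvcn1 stayed lower in replicate 2 and past the threshold under each alternative run. Among the listed genes, the partners called lower numbered 1 in place of 2 with total counts only, in DESeq2 and without Vehicle replicate 2, where the call of Prkca was lost, a second charge channel was called higher with total counts only, with all biotypes and without EGCG replicate 1, 3 were called lower with upper-quartile factors, and 2 of the superoxide and peroxide genes were called higher without Vehicle replicate 1.

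The EGCG difference of replicate 2 less that of replicate 1 was 0.07 for Cybb, -0.19 for Cyba, 0.08 for Ncf1, -0.13 for Ncf4 and -0.01 for Hvcn1, without a test. With upper-quartile factors it was 0.11, -0.14, 0.13 and 0.035 for Cybb, Cyba, Ncf1 and Hvcn1, and with total counts only 0.11, -0.15, 0.13 and 0.033. Without division by length the order of the 5 genes put Cybb at 1 and Cyba at 2, and Hvcn1 at 4 and Ncf4 at 5. The lengths are those of the files, and their derivation is not given in the sources used here.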

Other observations

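Of 5 other channel genes linked to charge movement during the burst, 1 was higher and 1 lower in replicate 2, against 29.1% and 27.6% of all genes. Trpm2, a calcium channel opened by products of oxidant stress, was at 3.23 and 3.74 CPM in the vehicle and EGCG libraries of replicate 1 and at 29.7 and 27.8 in those of replicate 2, a log2 difference of 3.04 (adjusted p from edgeR = 5.52e-06). Kcnn4, a calcium-activated potassium channel gene, was at 7.31 and 9.71 CPM in replicate 1 and 1.66 and 1.85 in replicate 2, a log2 difference of -2.27. Clcn3, Clic1 and Lrrc8a did not pass the test, with log2 differences of 0.13, -0.05 and -0.22. None of the 5 passed an unadjusted p under 0.05 for EGCG in either edgeR fit.

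Genes on the opposite strand overlap 3 of the oxidase genes. Gtf2ird2 had between 2.68% and 3.74% of the counts of Ncf1 in a library, Tctn1 between 2.95% and 5.34% of those of Hvcn1, and Gm20388 was at 0 beside Cyba. No other gene shared a stretch of 200 nt at 90% identity with Cybb, Cyba, Ncf1 or Ncf4, and Tctn1 was the one that did with Hvcn1.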
